A study of Mus musculus with 6 samples.

Results

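The TGF-beta and BMP signalling genes are a module of 39 genes picked by name, not by a rule on measured values. Earlier results of these data were known when they were chosen. They are the ligands, receptors, SMAD proteins, antagonists and first targets of the transforming growth factor beta (TGF-beta) and bone morphogenetic protein (BMP) pathways. A probe set (a group of array probes summarised to 1 value) was used where the platform annotation gave it exactly 1 gene symbol, and 38 of the 39 genes were measured in this way, each by 1 probe set, among 30142 genes tested. Gdf15 was not analysed here. The samples were 6 tumours from 3 mice (C1M3, C1M5, C2M3), each of which gave 1 late primary and 1 late metastatic tumour. In all 3 mice the tumours arose from ID8-VEGF cells placed under the ovarian bursa, the membrane around the ovary. ID8 is an established line of mouse ovarian surface epithelial origin, and the VEGF variant is made to produce vascular endothelial growth factor, so that the primary and the metastatic tumours carry the same agent and there is no group without it. The title of the series names surgical cytoreduction, but whether these mice had surgery, their strain and age, and the site of each metastasis are not given in the labels, and the source name of the C2M3 primary tumour reads C2M2 while its title and donor label read C2M3. The question was how expression in metastatic tumours differed from that in the primary tumour of the same mouse.

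TGF-beta and BMP ligands are secreted dimers that bring type II and type I receptor kinases together. TGF-beta receptors pass the signal mainly to SMAD2 and SMAD3, and BMP receptors to SMAD1, SMAD5 and SMAD9. Both branches use SMAD4 as the shared partner, and SMAD6 and SMAD7 hold the signal back. The Id genes are typical early targets of BMP signals, and Tgfbi encodes a matrix protein named for its induction by TGF-beta. In the ovary these ligands act in follicle growth, and in tumours TGF-beta acts on tumour cells as well as on fibroblasts, vessels and immune cells.

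The values were deposited on the log2 scale, so that 1 unit is a 2-fold difference in intensity. The precision of each mean and difference is limited by how few arrays there were. Values of a gene are given for the mice in the order C1M3, C1M5 and C2M3, and every difference is metastatic minus primary. Array medians over all genes lay between 4.90 and 5.15. A gene was called dim where its mean over the 6 arrays was not above 5.31, the 95th percentile of 1717 olfactory and vomeronasal receptor genes. By this measure 28 of the 38 genes were not dim, and 10 were dim: Bmp2, Bmp3, Bmp5, Gdf10, Bmpr1b, Smad9, Nog, Grem1, Bambi and Id4. The tumours had high values of ovarian surface and epithelial markers, with list means of 10.87 to 12.38 over 8 genes including Wt1, Krt8 and Krt18. Markers of host cells differed widely between arrays. In the C1M3 primary tumour the macrophage list had a mean of 6.26, against 7.93 to 8.83 in the other 5 arrays, and all 8 of its genes had a higher mean in metastatic tumours. In whole tumours, fewer cells of a type and less RNA per cell cannot be told apart.

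No gene of the module passed the test between metastatic and primary tumours. More of the variation of its genes lay between mice than between the 2 kinds of tumour, with medians of 68.6% and 12.2% over the genes that were not dim. Over all genes that were not dim these medians were 43.4% and 16.3%, and mice hold more degrees of freedom than the kind of tumour. With limma and the mouse as a block, 0 of 38 genes had an adjusted p under 0.05, as did 0 of all 30142 genes (0%), and the smallest adjusted p in the module was 0.841. Before adjustment, 3 of the 38 genes (7.89%) had a limma p under 0.05, all lower in metastatic tumours and all BMP ligands (Bmp6 and the dim Bmp2 and Bmp5). Over all genes tested, 1.97% were lower and 2.96% higher at that level. Among genes that were not dim, 1 of the 28 (3.57%) was lower at that level, against 3.2% of all such genes. Without the block the count over the 38 genes was 0, and with the block it was 5 without mouse C1M3, 1 without C1M5 and 1 without C2M3. The mean was lower in metastatic tumours for 22 genes and higher for 16, where 13237 of all 30142 genes tested were lower and 16573 higher. The median difference was -0.06, against 0.02 over all genes tested. With each array centred on its median, 29 genes were lower and the median difference was -0.17, where centring shifted the median of all genes by -0.11. Within a mouse, the median over the module was 0 in C1M3, -0.13 in C1M5 and 0 in C2M3.

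**Figure D1:**
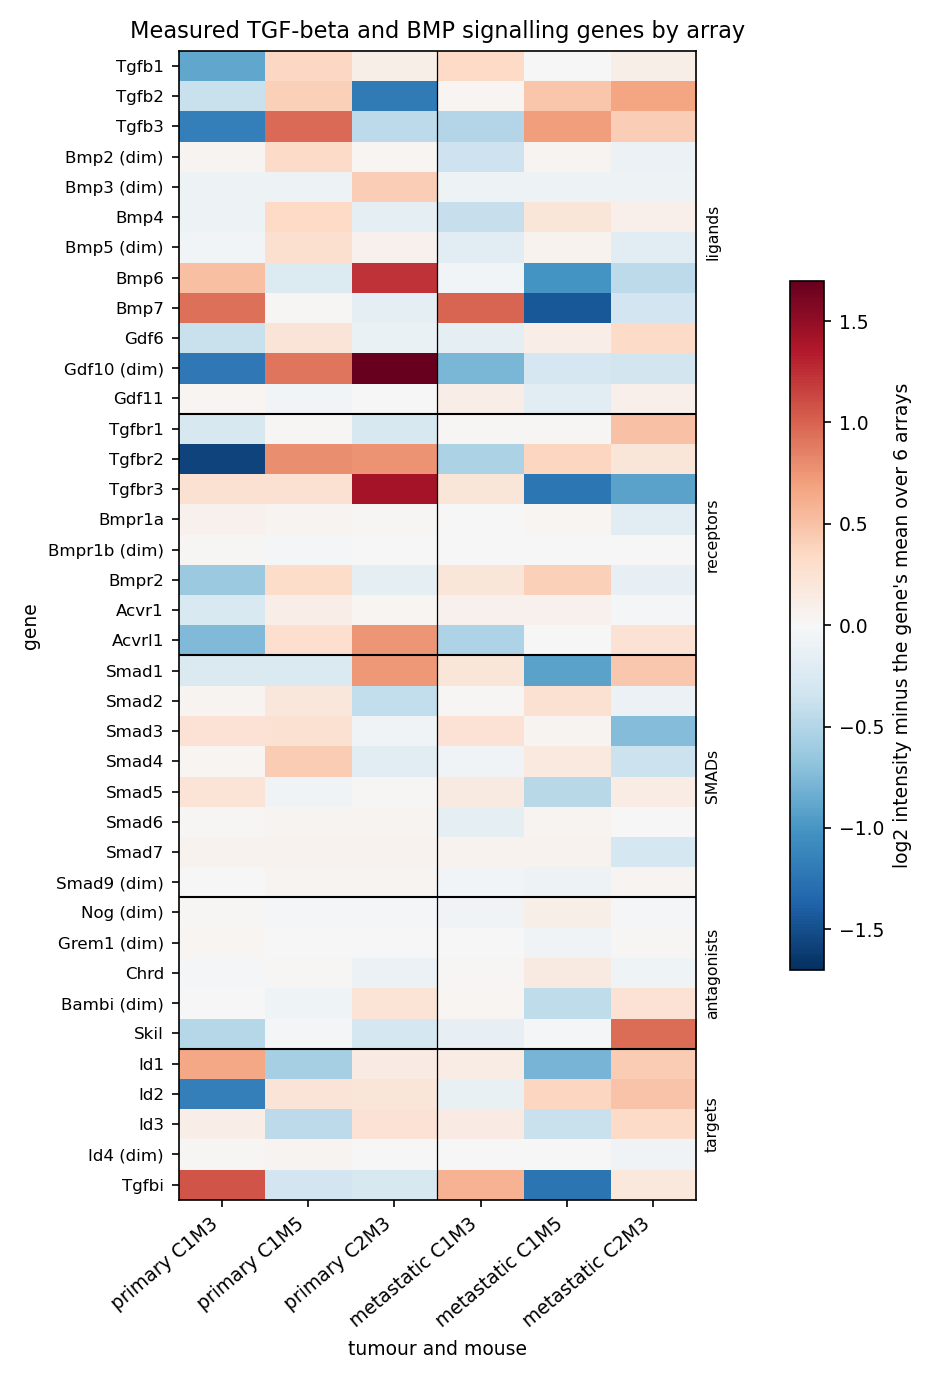
Log2 intensity of the 38 measured genes (rows, grouped by role) in each of the 6 arrays (columns), minus the mean of the gene over the 6 arrays; red is above and blue below that mean. Tgfbr2, Gdf10 and Id2 were low in the C1M3 primary tumour, and Bmp7 and Tgfbi were high in both tumours of C1M3.

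The TGF-beta ligands had higher means in metastatic tumours, without passing the test. Tgfb2, which encodes a TGF-beta isoform with its own role in development, had primary values of 9.22, 10.01 and 8.39 and metastatic values of 9.63, 10.06 and 10.27. The groups overlapped, and the low value was the C2M3 primary tumour. The difference had 1 sign in all 3 mice, with a mean of 0.78 (SE 0.46, limma adjusted p = 0.841), and it was 0.23 without the tumours of C2M3. Tgfb3, the third isoform, had primary values of 12.66, 14.79 and 13.38 and metastatic values of 13.33, 14.52 and 14.24. C1M5 had the highest value of both groups and C1M3 the lowest, so that the arrays were ordered alike in the 2 kinds of tumour, and the mean difference was 0.42 (SE 0.29). It was -0.05 without the C1M3 primary tumour, in a fit without the block, which did not pair the tumours. Within C1M5 and C2M3 the difference was -0.26 and 0.86. Tgfb1, which encodes the isoform most studied in wound repair and immune control, had 6.91 in the C1M3 primary tumour and 7.78 to 8.13 in the other 5 arrays. Its mean difference of 0.28 (SE 0.39) became -0.18 without the tumours of C1M3.

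The 6 BMP ligands of the module (Bmp2 to Bmp7) had a lower mean in metastatic tumours, none past the adjusted threshold. Over all genes tested, 13237 of 30142 had a lower mean. Bmp2, Bmp3 and Bmp5 were dim, and Bmp3, Bmp4 and Bmp7 did not have 1 sign in all 3 mice. Of the further BMP ligands, all dim, Bmp8a and Bmp8b differed by -0.12 and -0.0076, and Bmp10 and Bmp15 by 0.23 and 0.38. Bmp6, which encodes a ligand known for iron control in the liver and for actions in the ovary, had primary values of 7.59, 6.84 and 8.31 and metastatic values of 7.04, 6.07 and 6.63. It was lower in all 3 metastatic tumours than in the paired primary tumour, by 0.55, 0.77 and 1.68, although the groups overlapped through the low C1M5 primary tumour. On average the difference was -1.0 (SE 0.28, 95% interval -1.89 to -0.11), with an unadjusted p of 0.038 and an adjusted p of 0.841 in limma. Leaving out mice, or single tumours in a fit without the block, moved it between -1.37 and -0.64. Without the block its SE was 0.46. The promoter of Bmp6 is shown here because it was the gene of the module with the smallest unadjusted p among those that were not dim. The 250 bases before its start, from RefSeq (GRCm38.p6, chr13:38345466-38345715, plus strand), with CAGAC, the core that SMAD3 and SMAD4 can bind, in capitals, are as follows.
Bmp6: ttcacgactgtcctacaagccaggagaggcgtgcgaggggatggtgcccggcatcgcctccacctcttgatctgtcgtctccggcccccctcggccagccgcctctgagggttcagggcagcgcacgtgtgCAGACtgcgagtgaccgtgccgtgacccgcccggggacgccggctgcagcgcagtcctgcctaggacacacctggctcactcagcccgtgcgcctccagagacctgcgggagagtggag

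Bmp7, a ligand linked to kidney and epithelial development, had 9.38 and 9.43 in the primary and the metastatic tumour of C1M3. It had 8.46 and 6.99 in those of C1M5, and 8.27 and 8.11 in those of C2M3. Both tumours of C1M3 were above the other 4 arrays. The mean difference of -0.52 (SE 0.39) was 0.07 without the C1M5 metastatic tumour, in a fit without the block. Within C1M3 and C2M3 the difference was 0.05 and -0.16. Bmp2, a ligand of bone and heart formation, and Bmp5, a ligand of skeletal growth, were dim, with means below the limit set by receptor genes that stand for little expression. Bmp2 had primary values of 4.07, 4.34 and 4.06 and metastatic values of 3.67, 4.06 and 3.92. Bmp5 had primary values of 5.004, 5.33 and 5.12 and metastatic values of 4.87, 5.10 and 4.87. Both were lower in all 3 mice, with groups that overlapped. Bmp2 differed by -0.27 (SE 0.08, limma unadjusted p = 0.040) and Bmp5 by -0.20 (SE 0.06, limma unadjusted p = 0.036), and the adjusted p of both was 0.841. Bmp4, a ligand of early mesoderm, differed by -0.06 (SE 0.14) and Bmp3, a ligand that can oppose other BMPs, by -0.16 (SE 0.14), where 4 of the 6 values of Bmp3 were tied at 4.23.

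Of the growth and differentiation factors, Gdf10 varied most. Gdf10, also called BMP3B, was dim by its mean, and it is singled out here after its values were seen. It had primary values of 4.02, 6.14 and 6.92 and metastatic values of 4.45, 4.94 and 4.91. The 2 primary tumours with the high values were the ones with high adipocyte markers (list means of 9.14 and 11.44, against 5.47 to 5.94 in the other 4 arrays, with 7 of 7 genes lower on average in metastatic tumours). The smooth muscle list was also highest in these 2 tumours (7.86 and 8.61, against 6.30 to 6.92), with 7 of 7 genes lower on average in metastatic tumours. The part of fat or smooth muscle cells in this was not tested. Its mean difference was -0.93 (SE 0.58), and within C1M3 it was 0.43. Gdf6, a ligand of joint formation, differed by 0.18 (SE 0.14), and Gdf11, a close relative of myostatin, by 0.01 (SE 0.08) with all values between 5.96 and 6.26.

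**Figure D2:**
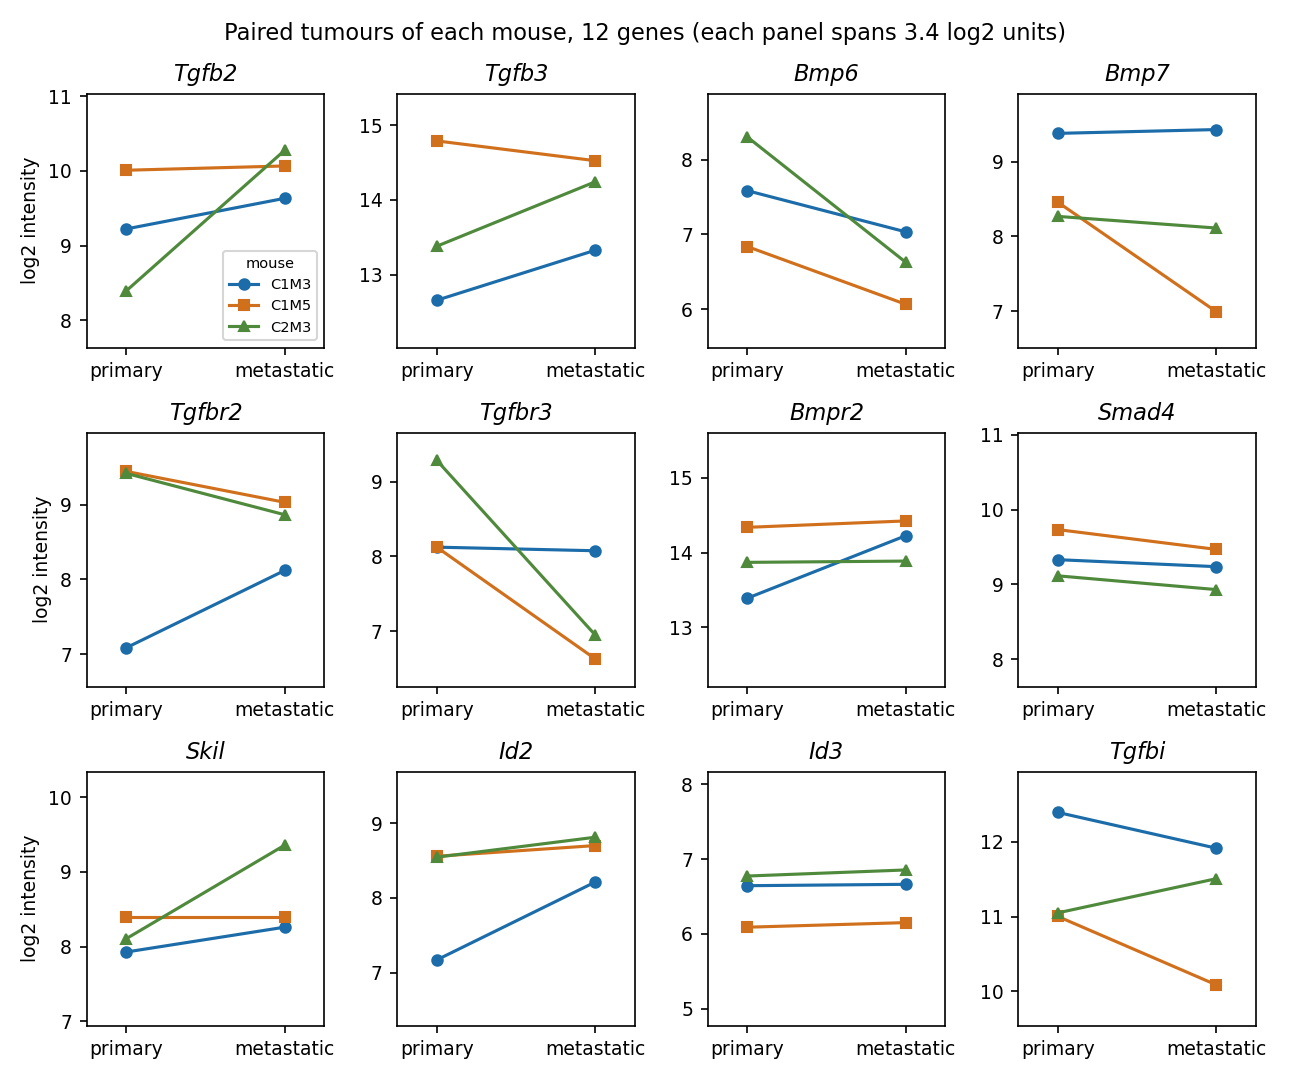
Log2 intensity of 12 genes in the primary (left) and metastatic (right) tumour of each mouse, joined by a line per mouse, where each panel spans 3.4 log2 units. The lines of Bmp6 and Smad4 run down in all 3 mice and those of Tgfb2, Bmpr2, Id2 and Id3 run up, while for Tgfb3, Bmp7, Tgfbr2 and Tgfbi they run in both directions.

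Among the 8 receptors of the module, Tgfbr3 had the widest difference. It encodes betaglycan, a co-receptor that presents TGF-beta2 and binds inhibin. It had primary values of 8.12, 8.12 and 9.29 and metastatic values of 8.08, 6.63 and 6.95. The groups did not overlap, although the 2 tumours of C1M3 were only 0.05 apart, and the C1M3 and C1M5 primary tumours were tied. The mean difference was -1.29 (SE 0.54, 95% interval -3.01 to 0.42, limma adjusted p = 0.841), with -1.49 in C1M5 and -2.34 in C2M3. It was -1.92 without the tumours of C1M3 and -0.77 without those of C2M3. Tgfbr3, like Bmp6, had its highest value in the C2M3 primary tumour. There the adipocyte, endothelial, smooth muscle and fibroblast marker lists also had their highest means (11.44, 8.47, 8.61 and 10.16), and their part in these values was not tested. Tgfbr3 was the 1 gene of the 28 that was lower without overlap, where 3.2% of all genes that were not dim did so, and 0 of the 28 were higher without overlap, where 4.67% of those genes were. It was also the 1 gene of the 28 with a mean difference of at least 2-fold, which 4.51% of all genes that were not dim had.

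Tgfbr2, the type II receptor that binds TGF-beta first, had primary values of 7.08, 9.44 and 9.42 and metastatic values of 8.12, 9.03 and 8.86. Both tumours of C1M3 were below the other 4 arrays, by the most in its primary tumour. On average the difference was 0.02 (SE 0.41, 95% interval -1.29 to 1.33), made of 1.03 in C1M3, -0.41 in C1M5 and -0.55 in C2M3. It was -0.76 without the C1M3 primary tumour, in a fit without the block, and -0.08 with each array centred. Acvrl1, which encodes ALK1, a BMP type I receptor of endothelial cells, had primary values of 6.32, 7.35 and 7.81 and metastatic values of 6.54, 7.06 and 7.31. This order of mice was the same in both groups, and the mean difference was -0.19 (SE 0.18). The endothelial marker list had primary means of 6.17, 7.06 and 8.47 and metastatic means of 7.07, 5.92 and 7.11, with all 8 genes lower on average in metastatic tumours, and its part in the values of Acvrl1 was not tested.

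Tgfbr1, the type I receptor kinase of TGF-beta, had primary values of 8.86, 9.15 and 8.86 and metastatic values of 9.15, 9.15 and 9.64, with 3 arrays tied at 9.15 and a mean difference of 0.36 (SE 0.19). Bmpr2, the BMP type II receptor, had primary values of 13.39, 14.34 and 13.87 and metastatic values of 14.23, 14.42 and 13.89. It was higher in the metastatic tumour of all 3 mice, by 0.84 in C1M3 but by 0.09 and 0.02 in C1M5 and C2M3, and the mean difference of 0.31 (SE 0.22) did not pass. Bmpr1a, a BMP type I receptor, lay between 8.23 and 8.49 in all arrays and was lower in metastatic tumours by 0.08, 0.01 and 0.21 in C1M3, C1M5 and C2M3. Acvr1, which encodes ALK2 and serves BMP6 and BMP7, differed by 0.07 (SE 0.11), and the dim Bmpr1b by 0.00 (SE 0.05).

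**Figure D3:**
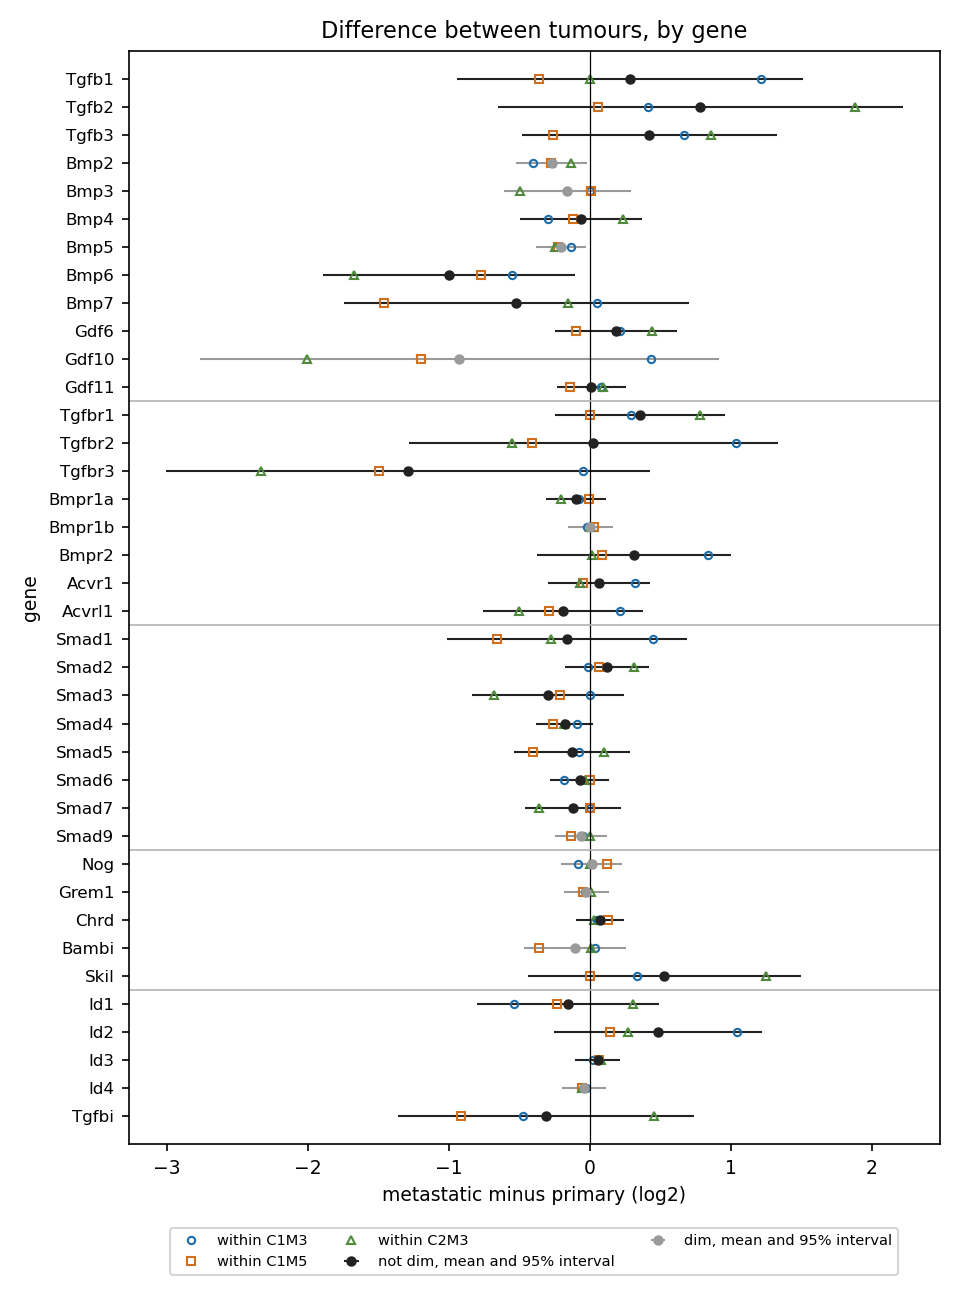
Metastatic minus primary difference (log2) of each of the 38 measured genes: filled points and bars are the mean and the 95% interval of the blocked fit (black, not dim; grey, dim), and open symbols are the differences within each mouse. The intervals of Bmp2, Bmp5 and Bmp6 leave out 0 before adjustment, and that of Tgfbr3 runs from -3.01 to 0.42.

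The SMAD genes had differences between -0.30 and 0.12. Of the 8 genes, 7 were lower on average in metastatic tumours (median difference -0.12), against 13237 of all 30142 genes tested, and none passed. Smad4, the shared partner, had primary values of 9.33, 9.73 and 9.11 and metastatic values of 9.24, 9.47 and 8.93. It was lower in the metastatic tumour of each mouse by 0.09, 0.26 and 0.18, while the mice differed more than the tumours did and the groups overlapped. The mean difference was -0.18 (SE 0.06, unadjusted p = 0.063, limma adjusted p = 0.841). Smad2, a TGF-beta branch SMAD, had primary values of 9.36, 9.51 and 8.90 and metastatic values of 9.34, 9.58 and 9.21, a difference of 0.12 (SE 0.09). Smad3, its partner in that branch, was at 6.90 in both tumours of C1M3 and at 5.91 in the C2M3 metastatic tumour, with a difference of -0.30 (SE 0.17).

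In the BMP branch, Smad1 ranged from 5.90 in the C1M5 metastatic tumour to 7.54 in the C2M3 primary tumour and differed by -0.16 (SE 0.27). Smad5 ranged from 7.54 to 8.25 and differed by -0.13 (SE 0.13), and the dim Smad9 by -0.06 (SE 0.06). The inhibitory SMAD genes had narrow ranges. Smad7 had the tied value of 6.05 in 5 of the 6 arrays and 5.69 in the C2M3 metastatic tumour. Smad6 lay between 5.64 and 5.84, with 3 arrays tied at 5.84.

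Of the 5 antagonists and modulators of the module, 3 were dim. Nog and Grem1, which encode the secreted BMP traps noggin and gremlin, lay between 3.61 and 3.77, and Bambi, a decoy receptor gene, between 4.51 and 5.18. Chrd, which encodes the BMP trap chordin, was just above the dim limit, with primary values of 5.47, 5.52 and 5.40 and metastatic values of 5.52, 5.64 and 5.43. It was higher in all 3 metastatic tumours by 0.03 to 0.12, and with each array centred the mean difference turned from 0.07 to -0.04. Skil, which encodes SnoN, a repressor of SMAD-driven transcription that is itself induced by TGF-beta, had primary values of 7.93, 8.39 and 8.11 and metastatic values of 8.26, 8.39 and 9.36. The C2M3 metastatic tumour stood above the other arrays, and the tumours of C1M5 were tied. On average the difference was 0.53 (SE 0.31), and 0.17 without the tumours of C2M3.

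The Id genes encode proteins that pair with basic helix-loop-helix factors and keep them from DNA. Id2 had primary values of 7.17, 8.56 and 8.54 and metastatic values of 8.21, 8.70 and 8.81. It was higher in all 3 metastatic tumours than in the paired primary tumour, by 1.04, 0.14 and 0.27, and the low array was the C1M3 primary tumour. The mean difference was 0.48 (SE 0.23, limma adjusted p = 0.841), and it was 0.20 without the tumours of C1M3. Without the C1M3 primary tumour alone it was 0.02, in a fit without the block. Id3 had primary values of 6.64, 6.09 and 6.77 and metastatic values of 6.66, 6.15 and 6.85. Its 2 tumours of a mouse were at most 0.08 apart in every mouse (rounded), and C1M5 lay lowest in both groups. On average the difference was 0.05 (SE 0.05, 95% interval -0.11 to 0.21), and -0.05 with each array centred. Id1 was also lowest in C1M5, with primary values of 7.46, 6.23 and 6.93 and metastatic values of 6.92, 6.001 and 7.23, and it differed by -0.16 (SE 0.21). The dim Id4 lay between 3.44 and 3.55.

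The promoters of Id2 and Id3 are shown because these are the target genes of the module, among those not dim, whose difference had 1 sign in all 3 mice, while they ordered the mice differently. The 250 bases before the start are from RefSeq (GRCm38.p6), at chr12:25096093-25096342 on the minus strand for Id2 and at chr4:136143572-136143821 on the plus strand for Id3. Capitals mark CAGAC, read on either strand, and the GC-rich motif GGCGCC, which BMP SMADs can bind.
Id2: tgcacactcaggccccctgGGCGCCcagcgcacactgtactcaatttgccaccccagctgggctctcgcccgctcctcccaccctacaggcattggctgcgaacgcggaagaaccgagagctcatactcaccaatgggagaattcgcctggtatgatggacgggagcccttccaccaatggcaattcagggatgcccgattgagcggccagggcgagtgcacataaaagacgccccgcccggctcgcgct
Id3: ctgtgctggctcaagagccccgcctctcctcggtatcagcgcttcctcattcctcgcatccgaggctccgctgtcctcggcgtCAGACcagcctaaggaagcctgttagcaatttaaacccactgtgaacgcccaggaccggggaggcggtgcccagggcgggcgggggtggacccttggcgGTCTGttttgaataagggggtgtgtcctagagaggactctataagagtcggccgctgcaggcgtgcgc

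The window of Id2 held 1 GGCGCC and no CAGAC, and that of Id3 held 2 CAGAC and no GGCGCC. Promoters of 24 of the 38 genes were found in the RefSeq table. On either strand, CAGAC lay in the windows of 11 of these 24 (45.8%) against 44.8% of 17492 protein-coding genes, and GGCGCC in those of 10 (41.7%) against 13.9%. The longer forms TGGCGCC, which contains GGCGCC, and GTCTAGAC lay in 1 and 0 of the 24, against 4.73% and 0.22%. The windows of the module had a median GC content of 65.9%, against 55.6% over the protein-coding genes, and its part in the share of GGCGCC was not tested. A match is only a run of letters in this window, and no binding was measured.

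Tgfbi had primary values of 12.40, 11.004 and 11.05 and metastatic values of 11.92, 10.09 and 11.51. C1M3 had the highest value of each group. The mean difference was -0.31 (SE 0.33), with -0.48, -0.92 and 0.46 within C1M3, C1M5 and C2M3. It was 0.23 without the C1M5 metastatic tumour, in a fit without the block.

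Of the 28 genes that were not dim, 5 were higher in the metastatic tumour of all 3 mice (Tgfb2, Bmpr2, Chrd, Id2 and Id3), against 11.9% of all genes that were not dim, and 4 were lower in all 3 (Bmp6, Tgfbr3, Bmpr1a and Smad4), against 11.2%. These are 17.9% and 14.3% of the 28. Of the sum of squares of a gene over the 6 arrays, the part between mice had a median of 68.6% over the 28 genes and the part between primary and metastatic tumours a median of 12.2%. The medians over all genes that were not dim were 43.4% and 16.3%. The degrees of freedom alone give 40% and 20% as mean shares, which medians need not match. The part between mice was over 50% for 18 of the 28 genes (64.3%), against 38% of all genes that were not dim. It was highest for Id3 (99.0%), Acvrl1 (87.5%), Id1 (86.5%) and Smad4 (85.6%), and lowest for Tgfbr1 (14.7%) and Tgfbr3 (15.7%). Without mouse C1M3, 14 of the 28 genes were over 50% (against 28.9% of all), and without C1M5 or C2M3 it was 14 of 28 and 17 of 27 (against 28% and 28.2%). Genes of a module share arrays, so these counts are a description. With 1 primary and 1 metastatic tumour per mouse, a difference between mice cannot be told apart from one between dissections or runs that took both tumours of a mouse together.

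**Figure D4:**
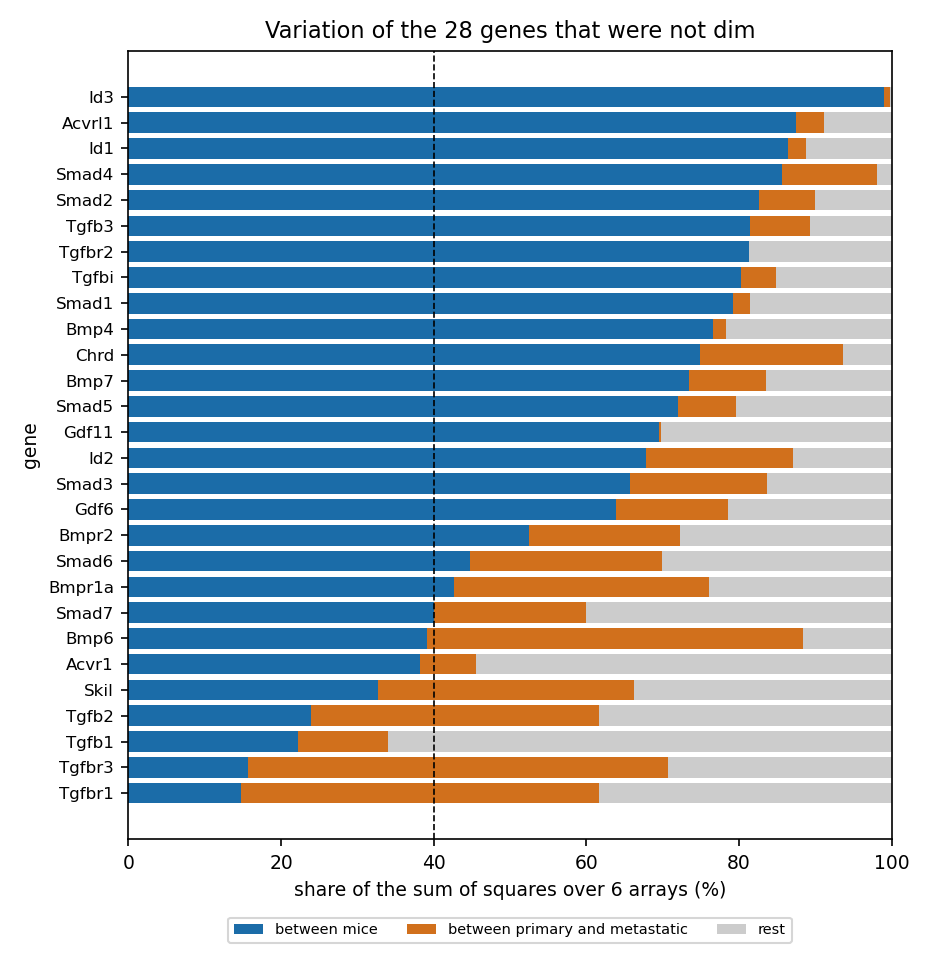
Share of the sum of squares over the 6 arrays that lay between mice (blue), between primary and metastatic tumours (orange) and in the rest (grey), for each of the 28 genes that were not dim. The dashed line is the 40% that the degrees of freedom give to mice as a mean share. The blue part passes 50% for 18 genes and is largest for Id3, and the orange part is largest for Tgfbr3.

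The C1M3 primary tumour held the lowest value of 9 of the 28 genes (32.1%), among them Tgfbr2, Acvrl1, Tgfb1, Tgfb3 and Id2, and the C1M5 metastatic tumour that of 8 (28.6%), among them Bmp6, Bmp7, Tgfbr3, Smad1, Id1 and Tgfbi. Over all genes that were not dim these arrays held the lowest value of 24.1% and 12.8%. In the C1M3 primary tumour the fibroblast list had its lowest mean (6.98, against 8.40 to 10.16), as had the macrophage list. The smooth muscle list (6.30, against 6.76 to 8.61) and the T cell list (4.52, against 4.83 to 5.39, with 2 of 5 genes not dim) were also lowest there. The proliferation list had its highest mean in this tumour (8.89, against 6.76 to 7.94). The endothelial list had its lowest mean in the C1M5 metastatic tumour, at 5.92. What these markers contribute to the values of the module was not tested.

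**Figure D5:**
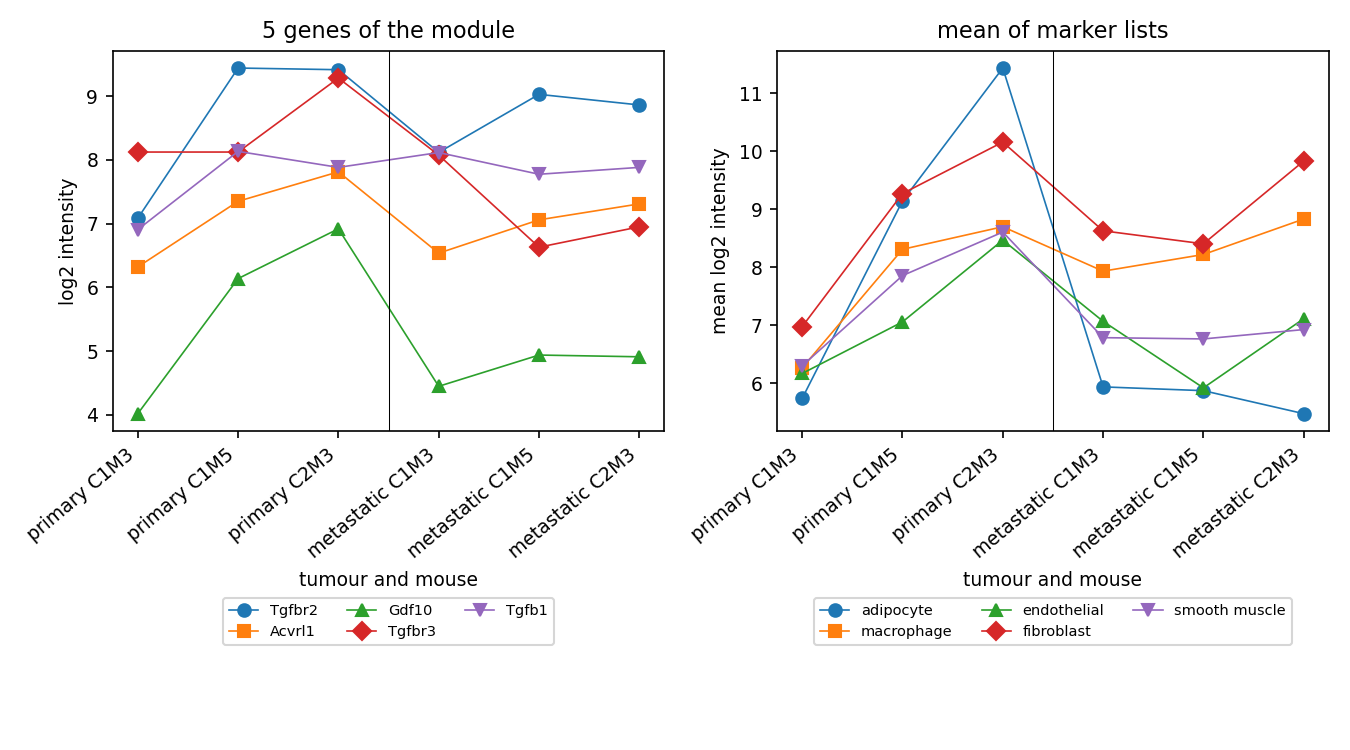
Log2 intensity of Tgfbr2, Acvrl1, Gdf10, Tgfbr3 and Tgfb1 (left) and mean log2 intensity of 5 marker lists (right) in the 6 arrays, where lines only join the points of a gene or list. Gdf10 and the adipocyte and smooth muscle lists were highest in the primary tumours of C1M5 and C2M3. Tgfbr2 and the macrophage, fibroblast and smooth muscle lists had their lowest value in the C1M3 primary tumour.

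Other genes of the pathway, from lists chosen by known function with earlier results known, did not pass either. Of 98 measured genes, 6 of which are also in the module, 0 had an adjusted p under 0.05, with or without the block. At an unadjusted p under 0.05 there were 4 higher (Crim1, Fn1, Timp1 and the dim Gdf5) and 0 lower. Over all genes tested, 2.96% were higher and 1.97% lower at that level. Of these 98 genes, 49 had a lower and 49 a higher mean in metastatic tumours. The groups did not overlap, in either direction, for 5 of the 98 (Acvr1c, Timp1, Itgb8 and the dim Nodal and Amh). Over all genes tested this held for 2301 of 30142. Among further receptors, Acvr1c, which encodes the activin receptor ALK7 known from fat tissue, had primary values of 5.65, 6.51 and 8.61 and metastatic values of 5.46, 5.25 and 4.91. The groups did not overlap, and the difference was -1.72 (SE 0.84). Chrdl1, a BMP trap related to chordin, differed by -1.80 (SE 0.97) and was high in the same primary tumours, at 6.93 in C1M5 and 9.38 in C2M3, against 5.07 to 5.43 elsewhere. In these tumours the adipocyte and smooth muscle lists were also high, and their part was not tested. Chrdl2, a trap of the same family, went from 5.47, 5.78 and 5.23 to 7.10, 6.12 and 5.74, a difference of 0.83 (SE 0.33). Crim1, a transmembrane protein that binds BMPs, had primary values of 11.14, 13.51 and 11.57 and metastatic values of 11.74, 13.88 and 12.70, a difference of 0.70 (SE 0.19) that was positive in all 3 mice.

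Genes known to respond to TGF-beta gave no common direction, with 12 of 24 measured genes lower and 12 higher in metastatic tumours and a median difference of -0.0040. This list shares Col1a1, Col1a2 and Col3a1 with the fibroblast markers and Tagln and Acta2 with the smooth muscle markers. It included Fn1 and Timp1, its 2 genes with an unadjusted p under 0.05. Fn1, which encodes fibronectin, had primary values of 13.44, 15.26 and 13.47 and metastatic values of 13.90, 15.66 and 13.79, a difference of 0.39 (SE 0.06, limma adjusted p = 0.841). Timp1, an inhibitor of matrix proteases, had primary values of 6.06, 6.51 and 6.47 and metastatic values of 6.71, 7.10 and 6.80, without overlap, and differed by 0.53 (SE 0.09). Postn, which encodes the matrix protein periostin, differed by -0.85 (SE 0.89), Ccn1 by -0.66 (SE 0.30) and Cdkn1a, the cell cycle inhibitor p21, by -0.66 (SE 0.32). Of 16 measured genes known to respond to BMP, which include 4 Id genes and Smad6 and Smad7 of the module, 7 were lower and 9 higher, with a median difference of 0.03 and 0 at an unadjusted p under 0.05. Of the genes that hold TGF-beta latent or release it, 6 of 11 had a lower mean. Ltbp1, which tethers latent TGF-beta to the matrix, had primary values of 9.01, 9.58 and 9.70 and metastatic values of 10.88, 8.70 and 11.29 and differed by 0.86 (SE 0.71). Itgb8, an integrin chain that releases active TGF-beta, was higher in metastatic tumours without overlap, at 7.78 to 8.28 against 7.66 to 7.74, by 0.32 (SE 0.13). Of 11 regulators inside the cell, 8 had a lower mean, with a median of -0.12, among them Ppm1a, a SMAD phosphatase gene, at -0.41 (SE 0.19). Inhbb, which encodes an activin subunit, was lower in the metastatic tumour of all 3 mice, by 0.28 on average (SE 0.09).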

How the data were processed

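Biotin-labelled RNA of 6 fresh frozen tumours was measured on expression arrays, 1 per tumour. Deposited by the authors was 1 log2 intensity for each probe set and array, and RMA and Transcriptome Analysis Console are named in the submitters' processing notes, without versions. The genome build is not given in the sources used here, and scanner files were not used here. Of 65956 probe sets that are no controls, 30604 had 1 gene symbol, 2146 several and 33206 none. Repeats of 1 symbol counted once, and 827 symbols were updated by Entrez identifier with RefSeq (GRCm38.p6). Per gene the probe set with the highest mean was kept (30142 genes, no filter).

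The difference was fitted across all genes with limma 3.58.1 (R 4.3.3), with tissue and mouse as terms, as a two-sided test at a threshold of 0.05 after Benjamini-Hochberg adjustment over every gene tested. SE is the moderated standard error. The pairing comes from the donor label: both tumours of a number are from 1 mouse. Across genes, deviations from the group mean in both tumours of a mouse had an r of -0.05 in C1M3, 0.35 in C1M5 and 0.07 in C2M3. Between tumours of different mice r ran from -0.30 to 0.13, so that only the r of C1M5 lay above that range. With mouse as a term, p-values rest on how the metastatic minus primary difference varies between these mice, with the variance moderated over all genes. The alternatives were no block, centring, a filter, probe set means, another variance prior, and leaving out mice or arrays. The fit was tested on simulated data.

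The genes and lists were chosen with earlier results of these data known. Values in all arrays were to be given for genes that were not dim with 1 sign in all mice, no overlap, a difference of at least 0.5 or a range of at least 2, for the ligand, receptor and SMAD gene of highest level (Tgfb3, Bmpr2 and Smad2), and for up to 4 genes of each pathway list with the largest difference. Beyond this rule, Tgfb1, Gdf10, Bmp2, Bmp5, Acvrl1, Tgfbr1, Id1, Itgb8, Fn1 and Timp1 were described after their values were seen. The rule was not followed in full. Bmpr1a is given by its range, and some pathway list genes only by their difference. Others were left out, such as Thbs1 (difference 0.57), Nbl1 (0.63) and Hey1 (0.35).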

Additional observations from a re-analysis of the deposited data

How the results depend on the processing

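The count of 0 genes past the threshold, over all genes, the module and the pathway lists, was found under every alternative run, so no call was gained or lost. Without the replicate block the mean differences are the same by construction, the median difference of the module was -0.06 as in the paired fit, and a p under 0.05 before adjustment was found for 867 genes higher and 402 lower, against 891 and 594 with it. The 3 genes of the module at that level were 0 without the block, 1 among genes above the median level, and 0 to 5 without single mice or arrays. Centring each array moved the median of the module to -0.17 and turned Gdf11 to -0.10, Tgfbr2 to -0.084, Bmpr1b to -0.10, Acvr1 to -0.039, Nog to -0.095, Chrd to -0.037 and Id3 to -0.052. Over the genes that were not dim the median was -0.03. Leaving out each mouse or array in turn gave a median between -0.07 and 0.01. Differences that turned sign then ranged from -0.18 to 0.60 for Tgfb1, -0.054 to 1.01 for Tgfb3, -0.25 to 0.0031 for Bmp3, -0.21 to 0.12 for Bmp4, -1.15 to 0.069 for Bmp7, -0.042 to 0.10 for Gdf11, -0.76 to 0.42 for Tgfbr2, -0.0092 to 0.014 for Bmpr1b, -0.061 to 0.14 for Acvr1, -0.61 to 0.13 for Acvrl1, -0.47 to 0.25 for Smad1, -0.059 to 0.25 for Smad2, -0.24 to 0.076 for Smad5, -0.042 to 0.059 for Nog, -0.25 to 0.082 for Bambi, -0.48 to 0.20 for Id1, -0.15 to 0.26 for Id3 and -0.70 to 0.23 for Tgfbi. Single-array omissions used the fit without the block, where a left-out array also brings differences between mice into the comparison. Id3, for example, was higher in each mouse, by 0.02, 0.06 and 0.08, so leaving out a whole mouse could not turn its sign. Beyond this the cause was not tested.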

Other observations

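Exact ties between arrays were common in these values. Of the 38 measured genes of the module, 15 had fewer than 6 distinct values over the 6 arrays (39.5%), among them Smad7, Tgfbr1 and Tgfbr3, against 51.4% of all genes tested. Among genes that were not dim this was 8 of 28 (28.6%), against 40.8%. A tied pair counts against a gene in the counts of 1 sign in all mice.

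The range over the 6 arrays was at least 2 log2 units for 6 of the 28 genes that were not dim (21.4%), against 12.1% of all genes that were not dim. These were Tgfb3, Bmp6, Bmp7, Tgfbr2, Tgfbr3 and Tgfbi.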
